A study of Mus musculus with 9 samples.

Results

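miR-7 and miR-671 are the microRNAs that meet on Cdr1as, the circular RNA made from the strand opposite the Cdr1 gene. The 4 mature arms described here, mmu-miR-7a-5p, mmu-miR-7b-5p, mmu-miR-671-5p and mmu-miR-671-3p (mmu marks the mouse and is left out hereafter), were taken by name from a table of 1448 mature mouse miRNAs, and all 4 passed the filter on low counts with 628 miRNAs in all. Small RNA of the hippocampus was sequenced from adult male C57BL/6J mice in 3 groups of 3 libraries. The saline group received 0.9% saline. The LPS group received an intraperitoneal injection of lipopolysaccharide, the bacterial cell wall product that sets off inflammation, at 1 mg/kg. Its label also names an equal volume of 0.12% saline. The LPS + GAS group received 1 mg/kg LPS and gastrodin (GAS), a phenolic glucoside of the orchid Gastrodia elata, at 100 mg/kg. By the labels GAS was given 1 h after LPS. The methods of the study name both that delay and a concurrent injection, and its abstract places GAS before LPS. The labels do not say whether a library came from 1 mouse or from pooled tissue, so the p-values given here measure the spread between these libraries.

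Mature miRNAs guide Argonaute to RNAs that pair with the seed, bases 2 to 8 counted from the 5′ end. Cdr1as is abundant in neurons, carries many miR-7 seed matches, and holds a nearly complete match to miR-671 through which it can be sliced. Cyrano, a long noncoding RNA listed in the annotation as 1700020I14Rik, carries an extensively paired miR-7 site that directs the degradation of miR-7 in mouse brain. miR-7 itself is best known from endocrine cells and the pituitary. Neither Cdr1as nor Cyrano can be read from small RNA libraries, so their levels were not measured here.

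The mature sequences are shown because the seed decides which of these miRNAs can read the same sites. Each is written 5′ to 3′ with the seed in capitals, and every one was identical in the deposited table and in RefSeq.
mmu-miR-7a-5p: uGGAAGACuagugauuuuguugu
mmu-miR-7b-5p: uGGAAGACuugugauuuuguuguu
mmu-miR-671-5p: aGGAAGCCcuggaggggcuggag
mmu-miR-671-3p: uCCGGUUCucagggcuccacc
The seed of miR-7a-5p and miR-7b-5p was the same, and no other row of the 1448 carried it. Counted from 1 at the 5′ end of miR-7a-5p, the pair differed by the single substitution A10U and by 1 more base at the 3′ end of miR-7b-5p. Since no source used here gives the aligner or its mismatch setting, the split of reads between miR-7a-5p and miR-7b-5p is uncertain, and their sum was fitted as well. The miR-671-5p seed differed from that of miR-7 by 1 substitution, A7C. GC content was 34.8% in miR-7a-5p and 33.3% in miR-7b-5p, against 69.6% in miR-671-5p and 66.7% in miR-671-3p.

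Several hairpins encode miR-7, and their 3p arms are shown because only they tell reads of Mir7-1 from reads of Mir7-2.
mmu-miR-7a-1-3p: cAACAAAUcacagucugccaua
mmu-miR-7a-2-3p: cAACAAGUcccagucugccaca
mmu-miR-7b-3p: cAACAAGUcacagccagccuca
The miR-7a-5p sequence is the same from both Mir7-1 and Mir7-2. In the GRCm38.p6 assembly Mir7-1 lies on the minus strand at chr13:58392779-58392886, inside Hnrnpk on the same strand and outside every annotated exon of that gene, which encodes a nuclear RNA-binding protein. Mir7-2 lies on the plus strand at chr7:78888277-78888373. With miRNA genes left out of the search, no annotated gene overlaps it, and the nearest is Aen at a distance of 7481 bases. Mir7b lies on the plus strand at chr17:56242988-56243098, 183 bases from a noncoding RNA gene on the same strand. Mir671 lies on the plus strand at chr5:24592114-24592211, within the coding part of exon 4 of Chpf2, an enzyme of chondroitin sulfate synthesis, and opposite an exon of a retained-intron transcript of Smarcd3. The 3p arms of Mir7-1 and Mir7-2 differed by 3 substitutions (A7G, A10C and U21C), and the 3p arms of Mir7-2 and Mir7b by 4 outside the seed.

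The sites on both noncoding RNAs were read from the GENCODE transcripts of GRCm38. The DNA letters GTCTTCC, the complement of the miR-7 seed, occurred 79 times in the 1554 bases on the strand opposite the annotated Cdr1 transcript, without overlap, and 2 of these were followed by an A. Among 52759 antisense windows of the same length, 16.0% held the motif at least once and the highest count in any other was 7. The complement of the miR-671-5p seed did not occur in this window, which covers only the annotated Cdr1 transcript. It occurred 1 time in the Cyrano transcript, and the share of windows that hold it was not counted. Both Cdr1as sites that end in A are printed with the seed match and that A in capitals.
Cdr1as, plus strand, chrX:61184032-61184054: tcctgaaaatccaccGTCTTCCA
Cdr1as, plus strand, chrX:61184428-61184450: ttccggaaaatctaaGTCTTCCA
The 8300-base Cyrano transcript held the miR-7 motif 2 times, and 48.7% of 1408 windows of that length held it. One of these sites is shown because its pairing reaches the 3′ end of the miRNA.
Cyrano, plus strand, chr2:119602136-119602161: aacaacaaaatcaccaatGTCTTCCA
Upstream of the seed match, 14 bases in a row of this site paired with bases 11 to 24 of miR-7b-5p. The run leaves out the substituted base but takes in the last base of miR-7b-5p, which miR-7a-5p lacks. A sequence match describes these letters and is not evidence that the site was used in these mice.

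Each library held between 10119758 and 11457656 reads on miRNAs. Levels are given as CPM, reads scaled to a common library total, with TMM factors, and ligation and amplification favour some sequences, so levels of different miRNAs rank reads and not molecules. The brain miRNA markers were present throughout: miR-124-3p alone ranged from 41631 to 81557 CPM, and 6 neural markers summed to 99435 to 140963 CPM. Markers of other cells were also present, with none at 0 reads. The choroid plexus set (miR-204-5p and 5 others) summed to 9284 to 28995 CPM in saline, 9295 to 21999 in LPS and 11873 to 55771 in LPS + GAS. Most of this sum is miR-204-5p, with a mean of 19222 CPM beside 832 for miR-1298-5p, the next highest of the set. In bulk tissue a change in the number of cells of a type and a change of RNA per cell cannot be told apart.

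mmu-miR-7a-5p was the most abundant of the 4 arms and ranked 32 among all 1448 rows. It measured 4699, 3682 and 8230.0 CPM in saline replicates 1 to 3. In the LPS libraries it measured 6533, 6939 and 3192 CPM. In the LPS + GAS libraries it measured 3786, 2844 and 7239 CPM. Each group held 1 or 2 libraries at 6533 CPM or more and another at 3682 CPM or less, so the groups overlapped throughout. The group means were 5537 ± 2387 CPM in saline, 5555 ± 2056 in LPS and 4623 ± 2314 in LPS + GAS (SD, n = 3 each).

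mmu-miR-7b-5p, which ranked 41, was steadier. It measured 3518, 2918 and 4297 CPM in saline. The LPS libraries held 5052, 4089 and 2928 CPM. The LPS + GAS libraries held 3169, 3746 and 4584 CPM. These groups overlapped as well, with means of 3578 ± 691 CPM in saline, 4023 ± 1063 in LPS and 3833 ± 711 in LPS + GAS (SD, n = 3 each). The levels of miR-7a-5p and miR-7b-5p overlapped, and miR-7b-5p made up between 34.3% (95% Wilson interval 34.0 to 34.6, saline replicate 3) and 56.8% (56.5 to 57.2, LPS + GAS replicate 2) of miR-7 5p reads. Such intervals cover counting error only, since reads amplified by PCR are not independent molecules.

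The miR-671 arms were read far less often than miR-7. mmu-miR-671-5p, the arm that targets Cdr1as, ranked 186 and measured 67.6, 102 and 100.4 CPM in saline. In LPS it measured 87.7, 63.9 and 255 CPM. In LPS + GAS it measured 63.8, 55.6 and 102 CPM. LPS replicate 3 stood apart with 2539 reads, 3.18 times the mean of the other 8 libraries, which held between 550 and 1154 reads. The deposited exp value, a second whole number per miRNA and library whose making is not stated, showed the same library at 2502. Leaving that library aside, the levels in all 3 groups overlapped.

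mmu-miR-671-3p, the opposite arm, ranked 458 and rested on few reads. It was counted 45, 62 and 34 times in saline, 26, 36 and 47 times in LPS, and 52, 46 and 26 times in LPS + GAS. At 26 reads the exact 95% Poisson interval ran from 17.0 to 38.1 reads, and at 62 reads from 47.5 to 79.5 reads. LPS replicate 3, which was high for miR-671-5p, was at 4.73 CPM for miR-671-3p, inside the range of 2.50 to 5.48 CPM of the other libraries. The 5p arm was therefore read 54.0 times as often as the 3p arm in that library, and 12.0 to 40.8 times as often in the other 8.

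**Figure D1:**
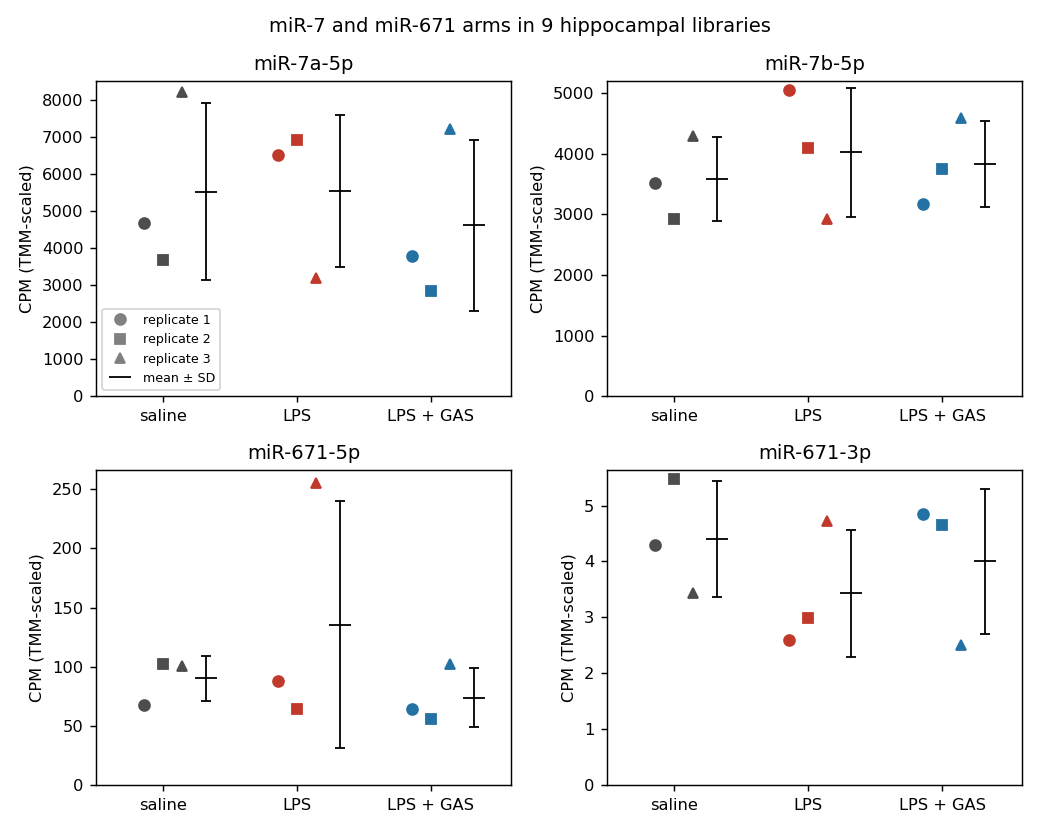
CPM after TMM scaling of the 4 arms (y axes from 0) in the 3 groups (x axis). Points are single libraries, marker shapes give the replicate number, and the black bar is the mean with SD of 3 libraries. All groups overlap in each panel, and LPS replicate 3 stands at 255 CPM for miR-671-5p.

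LPS was compared with saline to ask which miRNAs move with inflammation. No arm passed the test. A call needed both a Benjamini-Hochberg adjusted p of 0.05 or less and a log2 fold change of 1 or more in size, and 0 of 4 arms met this, as did 0 of 628 miRNAs (0%) in edgeR's quasi-likelihood test. An unadjusted p under 0.05 was found for 15 miRNAs (2.39%), and DESeq2's Wald test called 1 and limma-voom 0. The log2 fold change was 0.0047 for miR-7a-5p (SE 0.43, edgeR adjusted p = 0.996) and 0.17 for miR-7b-5p (SE 0.24, edgeR adjusted p = 0.992). The intervals were wide, a fold of 0.517 to 1.95 for miR-7a-5p and of 0.776 to 1.63 for miR-7b-5p. For their summed reads the log2 fold change was 0.11 with a fold interval of 0.657 to 1.78.

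For miR-671-5p the log2 fold change against saline was 0.59 (SE 0.48, edgeR adjusted p = 0.992), which rested on LPS replicate 3 and became -0.25 without that library. For miR-671-3p it was -0.36 (SE 0.33, edgeR adjusted p = 0.992), with a fold interval of 0.462 to 1.31. The median log2 fold change of the 4 arms was 0.087, beside -0.045 over the 628 miRNAs.

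LPS + GAS was compared with LPS to ask what gastrodin changed in treated mice. Again 0 of 4 arms were called, as were 0 of 628 miRNAs (0%), with 23 (3.66%) at an unadjusted p under 0.05, and DESeq2's Wald test and limma-voom called 0 as well. The log2 fold change of miR-671-5p was -0.88 (SE 0.48, edgeR adjusted p = 0.903), with a fold interval of 0.259 to 1.15, and it became -0.034 without LPS replicate 3. miR-7a-5p had a log2 fold change of -0.26 (SE 0.43) and miR-7b-5p one of -0.070 (SE 0.24), and for miR-671-3p it was 0.22 (SE 0.34). The LPS libraries serve both this comparison and the one with saline, so these values are not independent of each other.

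LPS + GAS against saline gave 0 of 4 arms called, beside 1 of 628 miRNAs (0.159%; miR-21a-3p, named after its value was seen) and 21 (3.34%) at an unadjusted p under 0.05. The log2 fold changes were -0.26 for miR-7a-5p (SE 0.43), 0.099 for miR-7b-5p (SE 0.24), -0.28 for miR-671-5p (SE 0.48) and -0.14 for miR-671-3p (SE 0.33), each with an edgeR adjusted p of 0.998. Their fold intervals ran from 0.430 to 1.62, 0.740 to 1.55, 0.392 to 1.72 and 0.542 to 1.52 in that order. Deviations of same-numbered libraries correlated at 0.296 to 0.370 between these groups, and those of differently numbered libraries at -0.424 to 0.043. No source says that the numbers pair libraries. Same-numbered libraries were also set side by side as a description. miR-7a-5p was lower in LPS + GAS in 3 of 3 same-numbered pairs, as was miR-7a-2-3p, the opposite arm of Mir7-2. miR-7b-3p was higher in 3 of 3, which follows from groups that did not overlap. The other arms of miR-7 and miR-671 were split. The share of the 628 miRNAs with 3 of 3 in 1 direction was not counted, so these counts are not a result about the arms. A fit with the replicate number as a block used all 9 libraries, LPS included, and is not a paired comparison of these groups alone. In it the log2 fold change of miR-7a-5p was -0.27 (SE 0.43, edgeR adjusted p = 0.998) with a fold interval of 0.414 to 1.65. That of miR-7a-2-3p was -0.17 (SE 0.29, edgeR adjusted p = 0.998) with a fold interval of 0.561 to 1.41.

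**Figure D2:**
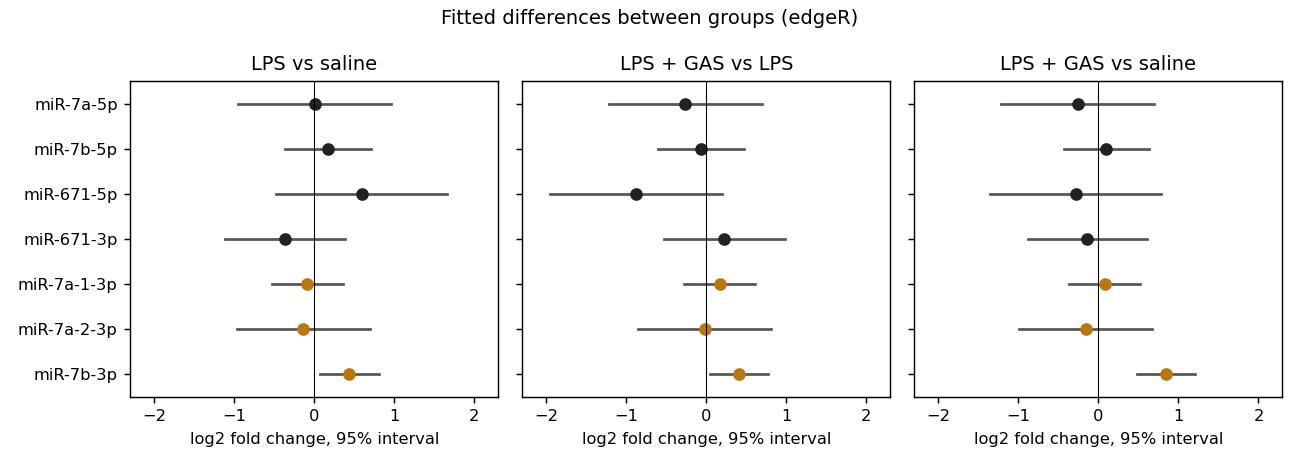
Fitted log2 fold change (x axis) with its 95% interval for the 4 arms (black) and the 3p arms of the miR-7 hairpins (orange) in each comparison. Only intervals of miR-7b-3p lie wholly above 0, with log2 fold changes of 0.44, 0.41 and 0.84.

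The opposite arms of the miR-7 hairpins were fitted in the same way. In each of the 3 comparisons 0 of the 3 arms were called. miR-7b-3p, the strand of the Mir7b hairpin that is usually discarded, was the arm whose groups did not overlap. It measured 45.7, 46.8 and 44.5 CPM in saline, 58.6, 70.7 and 56.2 CPM in LPS, and 80.8, 85.0 and 80.1 CPM in LPS + GAS. The lowest LPS library exceeded the highest saline library, and the lowest LPS + GAS library exceeded the highest LPS library. By comparison, 24 of 628 miRNAs (3.82%) had groups that did not overlap in LPS against saline, 12 of them higher (1.91%). In LPS + GAS against LPS there were 54 (8.60%), 26 of them higher (4.14%), and in LPS + GAS against saline 46 (7.32%), 16 of them higher (2.55%). The share of miRNAs that rose without overlap from saline to LPS and again to LPS + GAS was not counted.

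In LPS + GAS against saline the log2 fold change of miR-7b-3p was 0.84 (SE 0.16), a 1.80-fold difference with a 95% interval of 1.39 to 2.31. It had the second smallest p of the 628 (unadjusted p = 0.000473, edgeR adjusted p = 0.149) and did not pass the adjusted threshold. Over the alternative fits its adjusted p ran from 0.00103 with DESeq2's Wald test to 0.781 with edgeR without saline replicate 3, and the log2 fold change stayed below 1 in every one of them. The log2 fold change was 0.44 in LPS against saline (SE 0.16, unadjusted p = 0.0234, edgeR adjusted p = 0.992) and 0.41 in LPS + GAS against LPS (SE 0.16, unadjusted p = 0.0321, edgeR adjusted p = 0.903).

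The groups of miR-7b-5p, the guide arm of the same hairpin, overlapped. miR-7b-5p was read 77.1, 62.4 and 96.5 times as often as miR-7b-3p in saline, 86.2, 57.8 and 52.1 times in LPS, and 39.2, 44.1 and 57.2 times in LPS + GAS. The LPS + GAS ratios were all below the saline ratios, a difference of -0.74 on the log2 scale (two-sided exact permutation p = 0.1, the smallest that 3 against 3 libraries allow, and 0.75 after Benjamini-Hochberg adjustment over 15 ratio comparisons). The ratio is free of the scaling between libraries. Across the 9 libraries the levels of miR-7b-5p and miR-7b-3p had a Pearson r of 0.17 (exact permutation p = 0.65) and a Spearman rho of 0.12 (exact permutation p = 0.776), and r was 0.069 without the 2 libraries farthest from the median and -0.016 without saline replicate 2.

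Red blood cell markers, taken as a sum, were also highest in LPS + GAS. The summed level of miR-451a, miR-144-3p and miR-486a-5p was 4538 to 6170 CPM there, above the 2024 to 4264 CPM of saline and the 2149 to 3240 CPM of LPS. These sums are almost all miR-451a, with a mean of 3647 CPM beside 32.8 for miR-144-3p and 43.1 for miR-486a-5p. In LPS against saline the red blood cell sums overlapped, while miR-7b-3p did not. The part of blood in the level of miR-7b-3p was not tested.

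**Figure D3:**
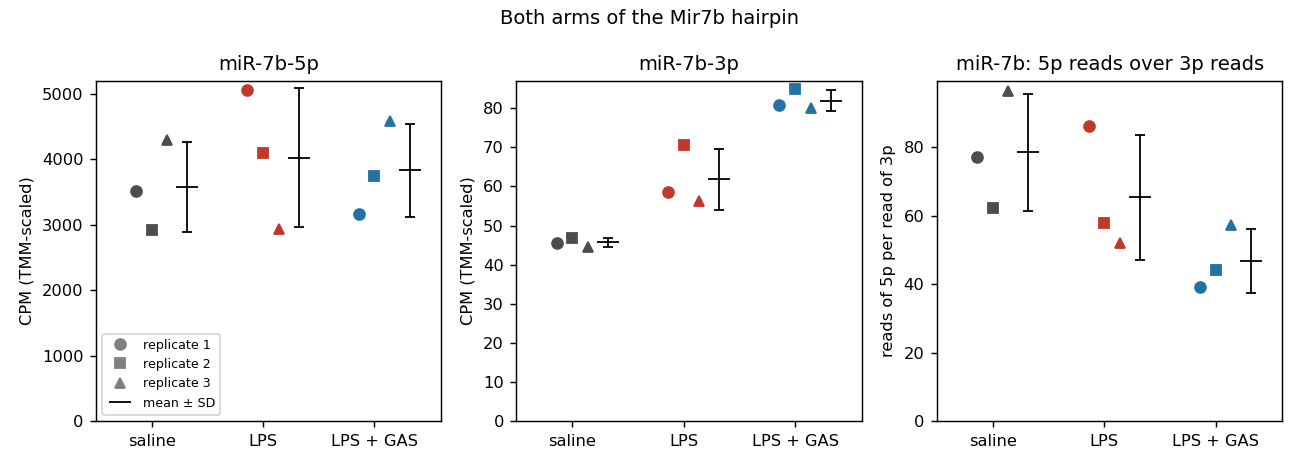
miR-7b-5p and miR-7b-3p in CPM and the reads of 5p per read of 3p (y axes from 0) by group (x axis). Points are libraries and black bars the mean with SD of 3. The 3p arm lies at 44.5 to 46.8 CPM in saline, 56.2 to 70.7 in LPS and 80.1 to 85.0 in LPS + GAS, while the 5p arm overlaps in all groups.

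miR-7a-5p varied more between libraries of a group than most miRNAs. Its within-group SD on the log2(CPM + 1) scale was 0.637, higher than that of 92.2% of the 628 miRNAs, whose median was 0.279. miR-671-5p had an SD of 0.682 (higher than 93.3%), miR-671-3p of 0.352 (69.7%) and miR-7b-5p of 0.320 (61.1%). Among the opposite arms, miR-7a-2-3p had an SD of 0.527 (88.1%) and miR-7a-1-3p one of 0.222 (28.0%). miR-7b-3p was among the steadiest with an SD of 0.105, above only 1.59% of the miRNAs.

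miR-7a-5p varied together with the opposite arm of 1 of its loci. miR-7a-2-3p, the opposite arm of Mir7-2, measured 142, 99.1 and 232 CPM in saline, 169, 134 and 126 CPM in LPS, and 127, 86.0 and 210.2 CPM in LPS + GAS. Its level went with miR-7a-5p across the 9 libraries (Pearson r = 0.87, exact permutation p = 0.0012, Benjamini-Hochberg adjusted 0.00963 over 8 pairs; Spearman rho = 0.93, exact permutation p = 0.00075, adjusted 0.0060). Without saline replicate 3 and LPS + GAS replicate 2, the libraries farthest from the median, r was 0.76 (exact permutation p = 0.0395), and among deviations from the group means it was 0.88 (exact permutation p = 0.0185). Neither of the last values passed adjustment over the 8 pairs, and without saline replicate 3 alone r was 0.83 (exact permutation, adjusted p = 0.0599).

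miR-7a-1-3p, the opposite arm of Mir7-1, was more abundant but did not follow miR-7a-5p. It measured 342, 308 and 322 CPM in saline, 325, 225 and 364 CPM in LPS, and 313, 360.3 and 352 CPM in LPS + GAS. Its correlation with miR-7a-5p was r = -0.40 (exact permutation p = 0.316) with rho = -0.37 (exact permutation p = 0.336), and r was -0.37 without the 2 libraries farthest from the median. Between the 3p arms of the 2 loci r was 0.0083 (exact permutation p = 0.982) with rho = -0.10 (exact permutation p = 0.81), a value near 0 whose sign changed with the scaling. The difference between the correlations of miR-7a-5p with each of the 3p arms was not tested.

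Within a library, reads of miR-7a-2-3p made up between 19.3% (95% Wilson interval 18.1 to 20.5, LPS + GAS replicate 2) and 41.9% (40.6 to 43.2, saline replicate 3) of the reads of both miR-7a 3p arms. The share was 29.3, 24.3 and 41.9% in saline, 34.2, 37.4 and 25.6% in LPS, and 28.8, 19.3 and 37.4% in LPS + GAS. The 4 libraries with the highest share were also the 4 with the most miR-7a-5p, from 6533 to 8230.0 CPM. Shares differed between libraries of a group by more than counting error, and the groups overlapped (two-sided exact permutation p of 0.9, 0.6 and 0.7 in LPS against saline, LPS + GAS against LPS and LPS + GAS against saline).

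miR-7a-5p also went with miR-7b-5p (r = 0.78, exact permutation p = 0.0191, adjusted 0.0766; rho = 0.70, exact permutation p = 0.0433, adjusted 0.173), and r was 0.93 without the 2 libraries farthest from the median. These arms share all but 1 of the bases they have in common, and the part of reads assigned to the other arm was not tested. Neither miR-7 arm went with miR-671-5p, with r = -0.10 for miR-7a-5p (exact permutation p = 0.842, rho = 0.20 with exact permutation p = 0.613, r = -0.46 without the farthest 2) and r = -0.29 for miR-7b-5p (exact permutation p = 0.481, rho = -0.067 with exact permutation p = 0.88, r = -0.34 without the farthest 2). Without LPS replicate 3 these correlations were 0.54 and 0.25. miR-671-5p and miR-671-3p had r = 0.083 (exact permutation p = 0.86, rho = -0.10 with exact permutation p = 0.81), which was -0.19 without the farthest 2 and -0.32 without LPS replicate 3. All 8 pairs were computed within and across groups of 3, too few for a value in each group.

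**Figure D4:**
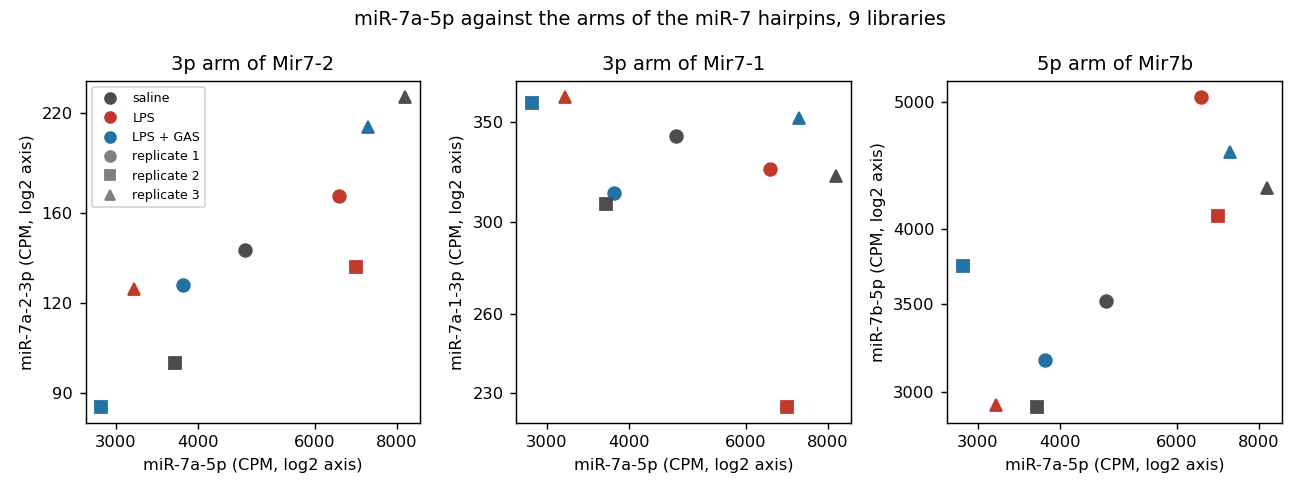
miR-7a-5p (x axis) against miR-7a-2-3p, miR-7a-1-3p and miR-7b-5p (y axes), all in CPM on log2 axes, in 9 libraries. Colours give the group and shapes the replicate. Points rise together for miR-7a-2-3p (r = 0.87) and miR-7b-5p (r = 0.78) and not for miR-7a-1-3p (r = -0.40).

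Cell markers were set beside the spread of miR-7a-5p. Within each group, the library highest in miR-7a-5p was lowest in the oligodendrocyte set of miR-219a-5p and miR-338-3p, and also in the leukocyte and microglia set of miR-223-3p, miR-142a-3p and miR-150-5p. The oligodendrocyte sums were 1325, 1489 and 712 CPM in saline, 937, 461 and 884 CPM in LPS, and 1388, 1114 and 773 CPM in LPS + GAS. The leukocyte sums ran from 4920 to 5314 CPM in saline, 2562 to 6208 in LPS and 3655 to 5582 in LPS + GAS. They are almost all miR-150-5p, with a mean of 4795 CPM beside 14.6 for miR-142a-3p and 8.39 for miR-223-3p, so their order is that of miR-150-5p. The endocrine set (miR-375-3p, miR-182-5p and 4 members of the miR-200 family), in tissue where miR-7 is also made, was at 342 CPM in saline replicate 3 and 361 CPM in LPS + GAS replicate 3, the lowest values of the 9 libraries, where miR-7a-5p was at 8230.0 and 7239 CPM. It was at its highest, 874 CPM, in LPS + GAS replicate 2, which was lowest in miR-7a-5p. In the LPS group the order was the other way, with endocrine sums of 442, 663 and 386 CPM beside miR-7a-5p at 6533, 6939 and 3192 CPM. The part of cell makeup in the spread of miR-7a-5p was not tested.

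**Figure D5:**
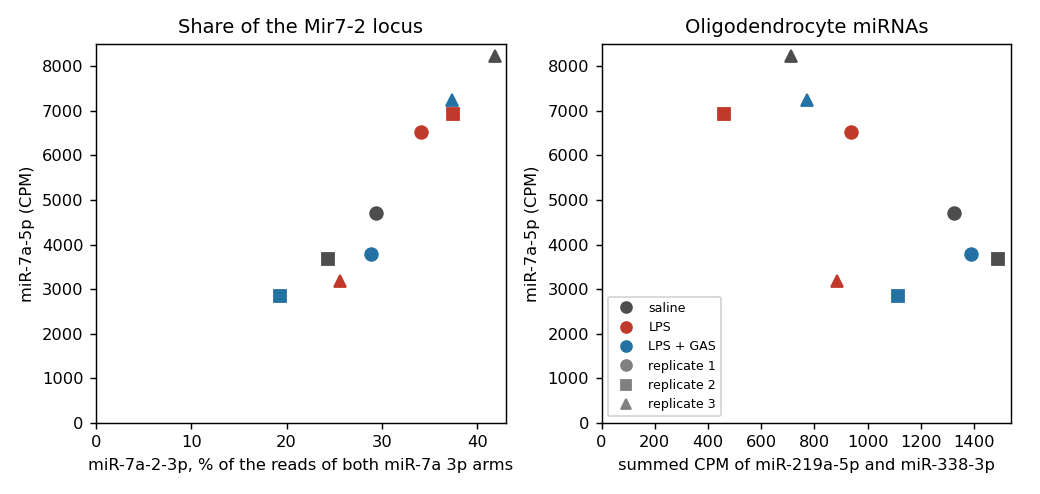
miR-7a-5p in CPM (y axes) against the percent of miR-7a 3p reads that came from miR-7a-2-3p (left x axis) and against the summed CPM of 2 oligodendrocyte miRNAs (right x axis), in 9 libraries. The 4 libraries at 6533 CPM or more have shares of 34.2% or more.

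The miRNAs with the profile most like each arm were ranked by Pearson r on log2(CPM + 1) over the 9 libraries, against 627 others, as a description. For miR-7a-5p these were miR-344e-3p (r = 0.97), miR-1247-5p (0.96), miR-1188-5p (0.94), miR-496a-3p (0.93) and miR-708-5p (0.92), and without the 2 libraries farthest from the median they were 0.96, 0.92, 0.92, 0.87 and 0.88. miR-344e-3p stood at 0.303 to 1.35 CPM, close to the limit of counting, whereas miR-708-5p stood at 990 to 1552 CPM. The profile least like miR-7a-5p was that of miR-34a-5p (r = -0.93), a p53 target miRNA at 1480 to 5353 CPM. miR-7a-2-3p ranked 12 and miR-7b-5p ranked 27 of 627 in this order, while miR-7a-1-3p ranked 508.

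miR-7b-5p was most like miR-3085-3p (r = 0.90), miR-3475-3p (0.87), miR-137-3p (0.85), miR-376b-5p (0.85) and miR-335-5p (0.84), and least like miR-671-3p (r = -0.93). Seen from miR-671-3p, miR-7b-5p ranked last of 627 and miR-7a-5p ranked 624 (r = -0.85). miR-671-3p was most like miR-484 (0.88), miR-181a-5p (0.85), miR-181a-1-3p (0.84), miR-3076-3p (0.83) and miR-133a-3p (0.82). With 26 to 62 reads in a library, much of the profile of miR-671-3p is of the size of its counting intervals.

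miR-671-5p was most like miR-30e-5p (r = 0.94), miR-30a-5p (0.91), miR-30c-5p (0.87), miR-664-5p (0.85) and miR-186-5p (0.85), and least like miR-574-5p (-0.88). These values leaned on LPS replicate 3: without it and LPS + GAS replicate 2 they were 0.81, 0.77, 0.71, 0.77, 0.28 and -0.74. The 5p arms of the miR-30 family share a seed, which is not that of miR-671.

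miR-29b-3p, which the transcript of Nrep removes in brain by target-directed degradation, was fitted for comparison. Its log2 fold change was -0.095 in LPS against saline (SE 0.20, edgeR adjusted p = 0.992), 0.14 in LPS + GAS against LPS (SE 0.20, edgeR adjusted p = 0.98) and 0.041 in LPS + GAS against saline (SE 0.19, edgeR adjusted p = 0.998). The groups overlapped in all 3 comparisons.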

How the data were processed

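Hippocampal small RNA libraries (BGISEQ-500) of 3 saline, 3 LPS and 3 LPS + GAS samples were used, grouped by their labels. The authors deposited whole read counts per mature miRNA, the unit tested here, and processing used GRCm38.p6 per the labels. No source used here gives the aligner or miRNA release. The deposited exp columns, treated as a score because their making is not stated, served only as an alternative. The authors' deposited averages, log2 fold changes, p-values and q-values were not used.

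Counts were TMM-scaled and fitted over all 9 libraries with edgeR 4.0.16 (quasi-likelihood test, at least 10 reads in at least 3 libraries, Benjamini-Hochberg adjustment over 628 miRNAs), with DESeq2 1.42.0 and limma 3.58.1 as alternatives. Calls needed an adjusted p of 0.05 or less and a log2 fold change of 1 or more in size. Tests across miRNAs were tested on simulated data. Ratios and correlations (log2(CPM + 1), all 362880 orderings of 9 libraries) used exact permutation tests in SciPy 1.17.1. Named miRNAs were the 4 arms, the opposite arms of the miR-7 hairpins, rows sharing a seed, miR-29b-3p as another miRNA with target-directed degradation (the rest of that list is not reported here), and per arm the 5 most like and the least like profile. Members and lists were chosen with earlier results of these data known.

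Replicate numbers recur in the groups. Deviations of same-numbered libraries correlated at 0.296, 0.329 and 0.370 between LPS + GAS and saline, and at -0.284 to 0.317 in LPS against saline and -0.274 to 0.047 in LPS + GAS against LPS. Between differently numbered libraries the values ran from -0.424 to 0.043 in LPS + GAS against saline, below every same-numbered value there. They ran from -0.617 to 0.348 in LPS against saline and from -0.333 to 0.496 in LPS + GAS against LPS. No source names a shared litter or day, so this check cannot show that the numbers pair libraries. Depth was 10119758 to 11457656 reads per library, and intervals cover counting error only.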

Additional observations from a re-analysis of the deposited data

How the results depend on the processing

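No arm was called under any alternative, and directions of values near 0 turned easily: of the log2 fold changes refitted, 386 kept their sign or side and 25 changed sign. A replicate block over all 9 libraries gave a log2 fold change of 0.84 for miR-7b-3p in LPS + GAS against saline (edgeR adjusted p = 0.376) and changed no call. Calls in LPS against saline were 2 with no filter on low counts and 1 with DESeq2's Wald test. Leaving out 1 library gave 0 to 1 calls in LPS against saline and in LPS + GAS against LPS. In LPS + GAS against saline, miR-7b-5p was at -0.076 with miR-7a-5p reads added. The cause was not tested for these changes.

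Leaving out 1 library at a time, the log2 fold change in LPS against saline ran from -0.17 to 0.41 for miR-7a-5p, -0.028 to 0.36 for miR-7b-5p, -0.25 to 0.97 for miR-671-5p (lowest without LPS replicate 3), -0.23 to 0.12 for miR-7a-1-3p, -0.34 to 0.24 for miR-7a-2-3p and -0.070 to 0.41 for summed miR-7. In LPS + GAS against LPS it ran from -0.73 to -0.0090 for miR-7a-5p, -1.21 to -0.034 for miR-671-5p (smallest in size without LPS replicate 3), -0.25 to 0.13 for miR-7b-5p and -0.41 to 0.24 for miR-7a-2-3p. In LPS + GAS against saline it ran from -0.68 to 0.14 for miR-7a-5p, -0.29 to 0.17 for miR-671-3p, -0.50 to 0.23 for miR-7a-2-3p and -0.37 to 0.21 for summed miR-7. The log2 ratio difference ran from -0.23 to 0.55 for miR-7a (5p over 3p) in LPS against saline and -0.71 to 0.18 for miR-671 in LPS + GAS against saline. The difference in percentage points for miR-7a-2-3p ran from -3.20 to 5.56 in LPS against saline, -8.35 to 0.713 in LPS + GAS against LPS and -7.79 to 1.66 in LPS + GAS against saline. For the miR-7b-5p share it ran from -0.672 to 5.28 in LPS against saline and -0.674 to 8.36 in LPS + GAS against LPS.

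Over the same removals r ran from 0.73 to 0.91 for miR-7a-5p with miR-7b-5p, 0.83 to 0.95 for miR-7a-5p with miR-7a-2-3p (adjusted p over 0.05 without saline replicate 3), -0.37 to 0.54 for miR-7a-5p with miR-671-5p, -0.016 to 0.34 for miR-7b-5p with miR-7b-3p, -0.41 to 0.25 for miR-7b-5p with miR-671-5p, -0.32 to 0.20 for miR-671-5p with miR-671-3p and -0.12 to 0.23 for miR-7a-1-3p with miR-7a-2-3p. That last pair was at -0.13 with DESeq2 size factors, -0.12 with exp values and -0.025 without the farthest 2 libraries. miR-7a-5p with miR-7a-2-3p was at 0.88 among deviations and 0.76 without the farthest 2, neither past the adjusted threshold, and miR-671-5p with miR-671-3p was at -0.19 without the farthest 2.

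With 3 libraries a group the median SE over the 628 miRNAs was 0.28 on the log2 scale, and at 26 to 62 reads miR-671-3p is limited by counting.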
